A study of Mus musculus with 8 samples.

Results

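A set of 10 genes that mark the thalamus and the habenula, the brain tissue lying beside the hippocampus, were followed in hippocampal RNA of mice given hydroxyurea. They were Tnnt1, Prkcd, Ramp3, Slitrk6, Gbx2, Lef1, Tcf7l2, Synpo2, Pou4f1 and Gpr151, which is 10 of the 21368 genes that the probes of the array named and 10 of the 16618 that could be tested. The members were selected on the log2 level in 1 treated mouse, Hydroxyurea 3, as markers of neighbouring tissue said to be high there, so the level in that mouse is described here and not tested. The description held for part of the set only. Hydroxyurea 3 had the highest level of the 8 mice for 5 of the 10 members, all of them thalamic, and Synpo2 and both habenular markers were not high there. As a set, the 10 genes are therefore called by their names and regions rather than by a level in Hydroxyurea 3.

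The series compared 4 Hydroxyurea mice with 4 Control mice, with 1 microarray per mouse. Hydroxyurea blocks ribonucleotide reductase, the enzyme that supplies deoxynucleotides for DNA synthesis. The Hydroxyurea mice drank it at 45 mg/kg/day for 10 weeks. Treatment started at 14 weeks of age in Hydroxyurea 1 and 2 and at 9 weeks in Hydroxyurea 3 and 4. Hydroxyurea 1 and 2 ended treatment at 24 weeks of age, Hydroxyurea 3 and 4 at 19 weeks, and the 4 Control mice were untreated and also 19 weeks of age. All 8 were female littermates that did not carry the transgenes of the APPswe/PSEN1dE9 line, on a C57BL/6J background, so neither group is an Alzheimer model. Cages held 2 to 4 mice, and which mice shared one is not given in the sources used here.

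The thalamus relays sensory and motor signals to the cortex, and its relay neurons are glutamatergic cells that carry a set of transcription factors, among them Gbx2, Lef1 and Tcf7l2, from development into the adult. Lef1 and Tcf7l2 bind DNA as the nuclear partners of beta-catenin in the Wnt pathway. The habenula is a small pair of nuclei above the thalamus whose neurons project to the midbrain, and Pou4f1 is a transcription factor that those neurons need. None of this tissue belongs to the hippocampus, although Lef1 is also active in hippocampal development and many of these genes have some expression elsewhere in the brain. In bulk tissue, a difference in the number of cells of a type and a difference in RNA per cell cannot be told apart.

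The promoters of the 5 members that were highest in Hydroxyurea 3 are shown because those genes were high together in 1 mouse and 2 of the 10 members encode factors that bind DNA at TCF/LEF motifs. The promoter collection used here (RefSeq, GRCm38.p6) held entries for 9 of the 10 members (all but Gpr151), 14 promoters in all. Each ran from 250 bases before a transcription start to 50 bases after it. Written 5′ to 3′ on the strand of the gene, 1 promoter per gene is given (for Prkcd and Lef1, with several starts, the one that holds a match), Tnnt1 at chr7:4515926-4516225 (minus strand), Prkcd at chr14:30626159-30626458 (minus strand), Ramp3 at chr11:6658283-6658582 (plus strand), Slitrk6 at chr14:110755100-110755399 (minus strand) and Lef1 at chr3:131156044-131156343 (plus strand). Capitals mark matches to the TCF/LEF motif CTTTGA, or TCAAAG on the other strand.
Tnnt1: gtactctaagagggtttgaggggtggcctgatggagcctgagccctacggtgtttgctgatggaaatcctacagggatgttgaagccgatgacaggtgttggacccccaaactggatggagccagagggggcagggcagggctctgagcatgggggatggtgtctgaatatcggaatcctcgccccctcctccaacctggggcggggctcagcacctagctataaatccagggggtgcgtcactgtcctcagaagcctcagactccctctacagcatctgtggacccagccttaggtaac
Prkcd: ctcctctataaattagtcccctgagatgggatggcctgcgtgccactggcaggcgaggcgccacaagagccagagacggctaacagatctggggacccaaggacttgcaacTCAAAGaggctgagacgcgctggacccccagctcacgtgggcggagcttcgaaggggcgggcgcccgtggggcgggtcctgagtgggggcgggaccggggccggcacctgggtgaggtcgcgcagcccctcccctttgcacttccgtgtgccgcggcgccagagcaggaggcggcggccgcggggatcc
Ramp3: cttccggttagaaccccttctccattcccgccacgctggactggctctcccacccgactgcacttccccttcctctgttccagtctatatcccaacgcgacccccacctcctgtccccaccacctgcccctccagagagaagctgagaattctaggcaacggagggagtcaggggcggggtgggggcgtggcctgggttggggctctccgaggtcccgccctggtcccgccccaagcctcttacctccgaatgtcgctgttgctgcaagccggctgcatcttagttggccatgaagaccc
Slitrk6: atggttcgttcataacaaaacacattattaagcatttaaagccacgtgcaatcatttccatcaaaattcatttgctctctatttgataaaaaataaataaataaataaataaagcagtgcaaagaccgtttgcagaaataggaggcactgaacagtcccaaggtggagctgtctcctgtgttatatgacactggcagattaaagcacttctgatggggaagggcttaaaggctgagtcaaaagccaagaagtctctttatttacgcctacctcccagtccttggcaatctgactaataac
Lef1: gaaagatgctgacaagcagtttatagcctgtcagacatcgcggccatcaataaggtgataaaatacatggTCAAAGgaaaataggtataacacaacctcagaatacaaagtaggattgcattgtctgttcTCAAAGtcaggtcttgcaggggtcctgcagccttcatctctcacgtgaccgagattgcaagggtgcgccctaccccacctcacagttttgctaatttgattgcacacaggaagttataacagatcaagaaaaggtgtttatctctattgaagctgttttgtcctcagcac
The motif was found in 2 of the 14 member promoters, against 16% of the 32851 promoters of the collection. It occurred once in 1 of the Prkcd promoters and at 2 places in 1 of the Lef1 promoters. The other promoters of these 2 genes, not printed here, had no match. Tnnt1, Ramp3 and Slitrk6 had no match in this window. The homeodomain motif TAATTA, its own reverse complement and without overlap with the other motif, was found in 1 of the 14, that of Synpo2, against 5.29% of all promoters. These are matches of letters and carry no measurement of binding.

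Every level below is the log2 processed signal of a probe minus the 75th percentile of the signal on the same array, with the probe of highest mean standing for a gene that had several. Levels of different probes are not compared with each other. The excess of Hydroxyurea 3 is its level minus the median of the other 7 mice. The 75th percentile was 1052 to 2162 signal units on the Hydroxyurea arrays and 1677 to 2417 on the Control arrays. Well above background were 59.6 to 69.0% of probes on the Hydroxyurea arrays and 62.1 to 76.7% on the Control arrays. Replicate spots on an array differed by a median of 2.87 to 3.13%, except on Control 1, where it was 9.65%. The Hydroxyurea arrays filled row 2 and the Control arrays row 1 of 1 slide, so slide row and treatment cannot be told apart. Of the members, 7 were well above background on all 8 arrays, while Pou4f1 was dim on 1 array and Gbx2 and Gpr151 on 3 each.

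Tnnt1, the slow skeletal muscle troponin T that in the brain is concentrated in the thalamus, stood furthest apart. Its level was -0.65, -0.76, 3.19 and -0.13 in Hydroxyurea 1 to 4, against -0.25, -0.75, 0.33 and -0.57 in Control 1 to 4. Hydroxyurea 3 lay 3.76 above the median of the other 7 mice, which is 13.5-fold, and 2.87 above the next mouse, Control 3, while the other treated mice lay within the range of the Control mice except Hydroxyurea 2, which was just below it. A second probe of the same gene had -4.45, -4.89, -0.63 and -3.99 in the Hydroxyurea mice and -4.11, -4.83, -3.54 and -4.52 in the Control mice. Its excess in Hydroxyurea 3 was 3.82, or 14.1-fold, with the same order at the top. By measured excess, 2 of the 16618 tested genes lay above Tnnt1, and 1 of them, Crybg2, was dim in most of the other 7 mice.

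Prkcd encodes protein kinase C delta, a signalling kinase used as a marker of thalamic relay neurons. Its level was 1.13, 0.06, 2.27 and 0.31 in Hydroxyurea 1 to 4, against 0.08, 0.15, 0.39 and 0.46 in Control 1 to 4. Hydroxyurea 3 was highest, with an excess of 1.96 (3.9-fold), and Hydroxyurea 1 was second and also above all 4 Control mice. A second probe gave 0.01, -0.86, 1.20 and -0.94 in the Hydroxyurea mice and -0.84, -0.84, -0.77 and -0.68 in the Control mice, an excess of 2.04 (4.11-fold) in Hydroxyurea 3 and again Hydroxyurea 1 as the second highest.

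Ramp3, a membrane protein that partners the calcitonin receptor and the calcitonin receptor-like receptor, had levels of 0.64, 1.01, 2.72 and 1.21 in Hydroxyurea 1 to 4, against 1.42, 0.80, 1.17 and 0.68 in Control 1 to 4. The excess of Hydroxyurea 3 was 1.71 (3.26-fold), and the other 3 treated mice overlapped the Control mice. Slitrk6, a leucine-rich repeat protein of the neuronal surface that organises synapses, had -2.62, -3.40, -0.96 and -2.58 in Hydroxyurea 1 to 4, against -3.27, -3.01, -2.69 and -3.46 in Control 1 to 4. Its excess in Hydroxyurea 3 was 2.04 (4.12-fold). Hydroxyurea 1 and 4 came next, only slightly above the highest Control mouse.

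The 3 transcription factors of the thalamus did not share 1 pattern. Lef1 had 0.25, 0.52, 1.23 and 0.46 in Hydroxyurea 1 to 4, against 0.33, 0.25, 0.67 and 0.19 in Control 1 to 4. Hydroxyurea 3 was highest, with an excess of 0.90 (1.86-fold). The second Lef1 probe had -1.54, -1.18, -0.92 and -1.25 in the Hydroxyurea mice and -1.59, -1.52, -1.41 and -1.59 in the Control mice, a smaller excess of 0.59 (1.51-fold) with Hydroxyurea 3 again highest.

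Gbx2, a homeobox factor that thalamic neurons need in development, was highest in a different mouse. It had -6.08, -6.15, -4.84 and -4.25 in Hydroxyurea 1 to 4, against -5.97, -5.80, -5.63 and -5.86 in Control 1 to 4. Hydroxyurea 4 was highest and Hydroxyurea 3 second, with a measured excess of 1.02 in Hydroxyurea 3. The probe was not well above background on Hydroxyurea 1, Hydroxyurea 2 and Control 1. With those values at the background limit the excess was at least 0.79, or at least 1.73-fold, and after normexp background correction the excess was 0.31. Both 19-week Hydroxyurea mice were above all 4 Control mice of the same age.

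For Tcf7l2 the answer depended on the probe. The brightest of its 3 probes had -2.69, -2.06, -2.40 and -2.82 in Hydroxyurea 1 to 4, against -2.53, -2.41, -2.73 and -2.78 in Control 1 to 4, with Hydroxyurea 2 highest and an excess of 0.29 (1.22-fold) in Hydroxyurea 3. The second probe had -3.46, -3.21, -1.91 and -3.03 in the Hydroxyurea mice and -3.06, -3.28, -3.28 and -3.35 in the Control mice, an excess of 1.37 (2.59-fold). The third had -4.68, -4.99, -3.40 and -4.47 in the Hydroxyurea mice and -4.72, -4.82, -4.87 and -4.84 in the Control mice, an excess of 1.42 (2.68-fold), and was dim on Hydroxyurea 2. On probes 2 and 3 Hydroxyurea 3 was over 1 above every other mouse. The 3 probes carry the names of 3 different RefSeq transcripts of the gene, and whether they read different transcripts was not tested.

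Synpo2, an actin-binding protein of muscle and neurons, was not high in Hydroxyurea 3. Its level was -2.45, -2.86, -2.71 and -2.07 in Hydroxyurea 1 to 4, against -2.68, -2.43, -1.92 and -2.40 in Control 1 to 4, with Control 3 highest and Hydroxyurea 3 second lowest (excess -0.28). A second probe, well above background on 4 arrays, had an excess of -0.23. The third had an excess of 1.54 but was dim on each of the 8 arrays, so its values give only a bound.

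Neither habenular marker was high in Hydroxyurea 3. Pou4f1, the POU factor of habenular neurons, had -4.06, -5.60, -4.89 and -4.45 in Hydroxyurea 1 to 4, against -4.95, -4.88, -5.10 and -4.67 in Control 1 to 4. Hydroxyurea 1 was highest, Hydroxyurea 3 lay at the median of the others (-0.01), and the probe was dim on Hydroxyurea 2. Gpr151, an orphan G protein-coupled receptor of habenular neurons and their axons, had -4.97, -5.75, -6.90 and -5.22 in Hydroxyurea 1 to 4, against -6.38, -5.95, -5.94 and -5.46 in Control 1 to 4. Hydroxyurea 3 was the lowest of the 8 mice, with an excess of -1.15, and it was dim there, on Hydroxyurea 2 and on Control 1, so that value is a bound. Hydroxyurea 1 was highest for both genes.

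**Figure D1:**
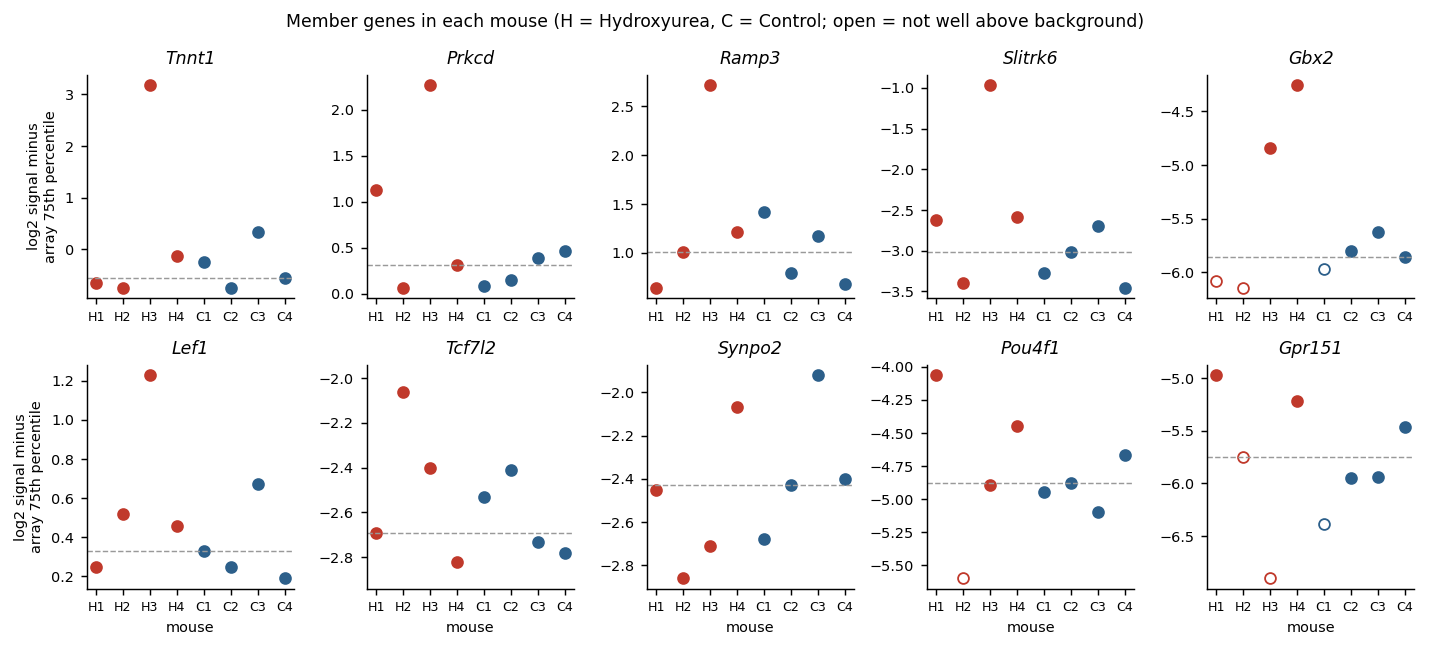
The log2 signal minus the 75th percentile of the array (y axis, scaled for each gene) of each member in each mouse (x axis, Hydroxyurea in red, Control in blue). Filled points were well above background, open points were not, and the dashed line is the median of the 7 mice other than Hydroxyurea 3. Hydroxyurea 3 is the top point for Tnnt1, Prkcd, Ramp3, Slitrk6 and Lef1 and the bottom point for Gpr151.

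**Figure D2:**
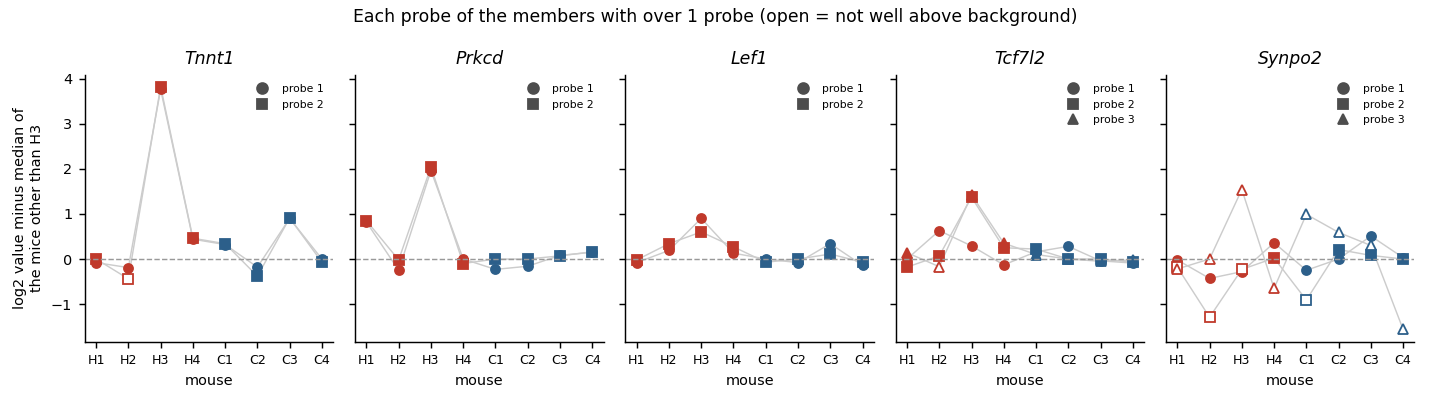
The log2 value of every probe of the 5 members with over 1 probe, minus that probe's median over the 7 mice other than Hydroxyurea 3 (y axis), in each mouse (x axis). Probe 1 is the brightest, and open points were not well above background. The probes of Tnnt1, Prkcd and Lef1 peak together in Hydroxyurea 3, while probe 1 of Tcf7l2 does not follow its probes 2 and 3. Probes 1 and 2 of Synpo2 are not high in Hydroxyurea 3, and its probe 3 is dim on every array.

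Over the set, 5 of 10 members were highest in Hydroxyurea 3, where 8.27% of all tested genes were highest in that mouse. The excess was over 0.5 in 6 of 10, where 2.42% of tested genes had such an excess. Because the members were chosen for this mouse, nothing is read from these shares. Just inside the description of a high level stood Lef1 with an excess of 0.90, and just outside it Tcf7l2 with 0.29 on its brightest probe. Among 16618 genes ordered by the measured excess, dim values included, Tnnt1 was 3rd, Slitrk6 27th, Prkcd 33rd, Ramp3 47th, Gbx2 116th and Lef1 145th. Tcf7l2 was 944th and Pou4f1 8948th, while Synpo2 was 15455th and Gpr151 16553rd.

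The treatment was tested in the mice that the choice did not use, Hydroxyurea 1, 2 and 4 against the 4 Control mice, with limma across all 16618 genes and Benjamini-Hochberg adjustment. None of the 10 members passed an adjusted p of 0.05. Nor did any gene of the 16618, so the share called was 0%. An unadjusted limma p under 0.05 was found for 7.17% of all tested genes. These were 2.49% of all tested genes higher and 4.68% of all tested genes lower in the Hydroxyurea mice. Among the members 1 had an unadjusted p under 0.05, Gpr151, which was higher. The members' log2 differences ran from -0.20 to 0.62, 7 above 0 and 3 below, with a median of 0.14 against -0.008 over all genes tested. No member had groups that did not overlap, against 9.77% of genes. With 3 mice against 4, an exact permutation test cannot give a p below 0.0571.

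Among the effector genes of thalamic neurons, Tnnt1 averaged -0.52 in the 3 Hydroxyurea mice and -0.31 in the 4 Control mice, a log2 difference of -0.20 ± 0.28 (SE, limma adjusted p = 0.863). Prkcd averaged 0.50 in the Hydroxyurea mice and 0.27 in the Control mice, 0.23 ± 0.25 (limma adjusted p = 0.83), and the sign rested on Hydroxyurea 1, without which the difference was -0.08. Ramp3 differed by -0.06 ± 0.21 (limma adjusted p = 0.952) and Slitrk6 by 0.24 ± 0.26 (limma adjusted p = 0.825). Lef1, at 0.05 ± 0.13, had the narrowest interval of the set, from -0.26 to 0.37. Tcf7l2 differed by 0.09 ± 0.20 and Synpo2 by -0.10 ± 0.23. Gbx2 had the widest interval, from -0.74 to 1.38 around 0.32, and without Hydroxyurea 4 its difference was -0.30. Pou4f1 differed by 0.20 ± 0.34, and by -0.13 without Hydroxyurea 1.

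Gpr151 had the smallest p of the members. It averaged -5.31 in Hydroxyurea 1, 2 and 4 and -5.93 in the 4 Control mice, a difference of 0.62 ± 0.26 (SE, 95% interval 0.01 to 1.22). The unadjusted limma p was 0.0465 and the limma adjusted p was 0.691. The exact two-sided permutation test gave p = 0.143, and the highest Control mouse lay above Hydroxyurea 2. The probe was dim on Hydroxyurea 2 and Control 1, and with normexp background correction the difference was 0.18. The 95% interval excluded a 2-fold difference in either direction for 7 of the 10 members, as it did for 90.9% of all tested genes, and a 1.5-fold difference for 3, as for 73.4% of genes. For the other members the interval, from 7 arrays, left a difference of that size possible.

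With Hydroxyurea 3 included, which is a description since that mouse chose the genes, the difference over 4 and 4 mice was 0.72 ± 0.84 for Tnnt1, 0.67 ± 0.44 for Prkcd and 0.72 ± 0.47 for Slitrk6. It was 0.38 ± 0.42 for Ramp3 and 0.25 ± 0.21 for Lef1. Thus 1 mouse accounted for the sign of the group difference of Tnnt1 and of Ramp3. For Gpr151 the difference was 0.22 ± 0.41 with that mouse.

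**Figure D3:**
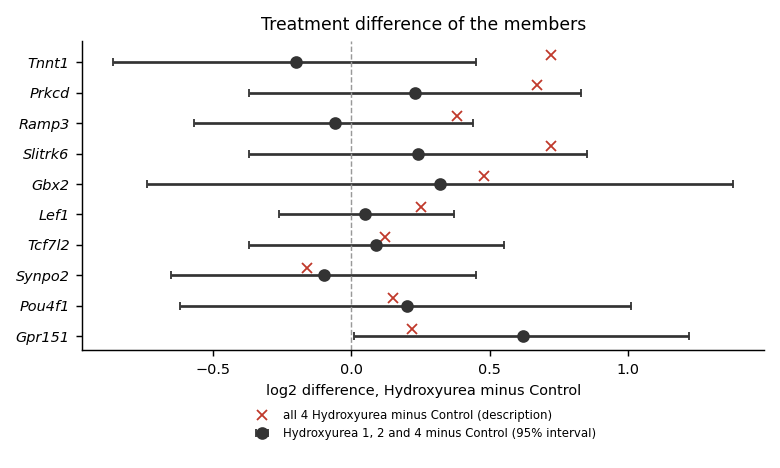
The log2 difference of each member, Hydroxyurea minus Control (x axis). Black points with bars are Hydroxyurea 1, 2 and 4 against Control 1 to 4 with the 95% interval of the limma fit, and red crosses are all 4 Hydroxyurea mice against Control 1 to 4. The intervals cross 0 for every member but Gpr151, whose interval starts at 0.01.

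Age differed within the treated group, so Hydroxyurea 1 and 2, at 24 weeks, were also compared with Hydroxyurea 4, at 19 weeks, in a limma fit with the Control mice and without Hydroxyurea 3. The lone 19-week mouse was assumed to vary like the other groups. No member passed, and 1 gene of the 16618 (0.00602%) did. Gbx2 came closest, with an average of -6.12 in the 24-week mice and -4.25 in Hydroxyurea 4, a log2 difference of -1.86 ± 0.16 (SE, limma adjusted p = 0.0941). Since the probe was not well above background in both 24-week mice, the gene was at least 1.84-fold higher in Hydroxyurea 4, measured against the background limit of -5.14. For the other 9 members the limma adjusted p was at least 0.979. Of the 10 differences, 2 were above 0 and 8 below, and 5.49% of all genes had an unadjusted p under 0.05.

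Whether the members vary together was described in the 7 mice other than Hydroxyurea 3. Of the 45 pairs of members, 28 correlated above 0 and 17 below, with 12 over 0.5 and 9 under -0.5. The median Pearson r was 0.25, against 0.01 over all pairs of tested genes, and it ranged from 0.12 to 0.36 when 1 mouse was left out. The pairs share the same 7 arrays and their scaling, and several of the genes are dim on some arrays. The mean deviation of the 8 thalamic members from their own means was -0.19, -0.33, 1.18 and 0.14 in Hydroxyurea 1 to 4, against -0.24, -0.28, 0.07 and -0.35 in Control 1 to 4. That of the 2 habenular members was 0.81, -0.36, -0.57 and 0.49 in Hydroxyurea 1 to 4, against -0.34, -0.09, -0.20 and 0.26 in Control 1 to 4. Over all 8 mice, the mean of the thalamic members, chosen for Hydroxyurea 3, was highest in that mouse. That of the habenular members was highest in Hydroxyurea 1. The low habenular mean in Hydroxyurea 3 rested on Gpr151, which was dim there, while Pou4f1 had an excess of -0.01.

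Other genes of the thalamus were taken from a list of 19, of which 17 were tested. Hydroxyurea 3 was the highest mouse for 9 of the 17, where 8.27% of all tested genes were highest there. Its excess was above 0 for 14, where 8484 of all tested genes lay above 0 and 8131 below. The median was 0.52, against 0.96 for the members and 0.004 over all tested genes. This list was chosen with earlier results of these data known, so nothing is read from these shares. Trh, the precursor of thyrotropin-releasing hormone, had -1.90, -2.32, 0.01 and -0.84 in Hydroxyurea 1 to 4, against -3.53, -3.43, -1.54 and -2.82 in Control 1 to 4, an excess of 2.33 (5.02-fold). Its 3 other treated mice were also above 3 of the 4 Control mice, with an limma adjusted p of 0.693 without Hydroxyurea 3. Rgs16, a regulator of G protein signalling, had -0.31, -0.28, 1.34 and 0.15 in Hydroxyurea 1 to 4, against -0.12, -0.28, 0.24 and -0.54 in Control 1 to 4, an excess of 1.61 (3.06-fold). Slc17a6, the vesicular glutamate transporter of subcortical neurons, had 0.48, 0.18, 1.48 and 0.96 in Hydroxyurea 1 to 4, against 1.43, -0.30, 0.56 and 0.07 in Control 1 to 4, and Control 1 nearly reached Hydroxyurea 3.

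Zic1, a zinc finger factor, had 3.54, 1.31, 3.04 and 2.72 in Hydroxyurea 1 to 4, against 0.79, 1.66, 2.61 and 1.61 in Control 1 to 4, so Hydroxyurea 1 was highest. The excess in Hydroxyurea 3 was 0.85 for both Foxp2, a forkhead factor, and Rora, a nuclear receptor of thalamic and cerebellar neurons. At the other end Lhx2 had an excess of -0.22 and Ecel1 of -0.15. Shox2 and Plekhg1 were well above background on only 2 arrays each and were not tested. The summed signal of the 17 genes, in multiples of the array's 75th percentile, was 87.2 to 123.0 in the Hydroxyurea mice, with the highest in Hydroxyurea 3, and 86.1 to 95.5 in the Control mice. Such a sum is weighted to the brightest probes of a list, here Cplx1 (5.56 in Hydroxyurea 3) and Adarb1 (4.58). It does not measure an amount of tissue. No gene of the list passed the test without Hydroxyurea 3, and none was absent from all arrays.

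Of 14 other habenular genes, 12 were tested, and they did not follow the thalamic ones. Hydroxyurea 3 was highest for 1 of the 12, Nhlh2, a basic helix-loop-helix factor, with an excess of 0.60, and the median excess was -0.06. Nr4a2, a nuclear receptor, had an excess of 0.21, and Htr5b, a serotonin receptor, of 0.16. Chat, the enzyme that makes acetylcholine, had 0.03, Etv1 -0.02 and Gng8 -0.05, while Wif1, at -0.17, and Tac2, at -0.23, were lowest. The summed signal of the 12 genes was 46.1 to 48.6 in the Hydroxyurea mice and 47.2 to 50.5 in the Control mice, with Hydroxyurea 1 and 2 below every Control mouse and Control 1 above every Hydroxyurea mouse. This sum is weighted to the brightest probes, Etv1 (4.71 in Hydroxyurea 3) and Nr4a2 (3.38), and does not measure an amount of habenular tissue. The nicotinic receptor genes Chrnb3 and Chrna3 were not tested, since their probes were well above background on too few arrays. Without Hydroxyurea 3, 7 of the 12 tested genes were higher in the Hydroxyurea mice and 5 lower. An unadjusted limma p under 0.05 was found for 3 of the 12, against 7.17% of all tested genes. These were Chrnb4 (log2 difference 0.41), Tac2 (0.35) and Htr5b (0.26), all higher. The smallest limma adjusted p of the list was 0.69.

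**Figure D4:**
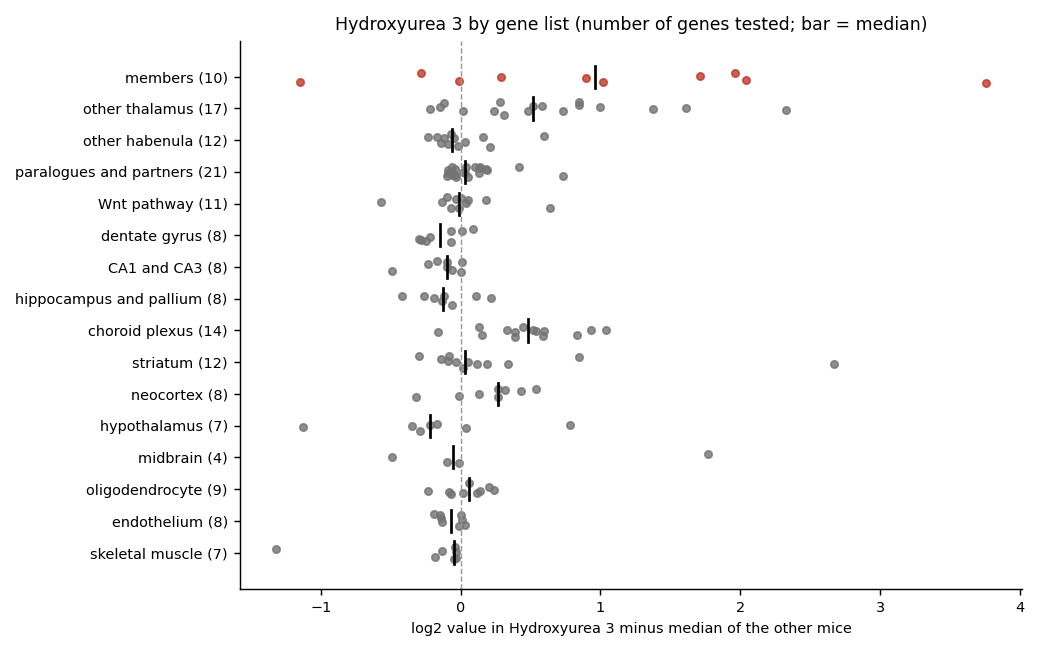
The log2 level in Hydroxyurea 3 minus the median of the other 7 mice (x axis) of each tested gene, in rows by gene list, with the number tested in brackets and a bar at the median. Members, in red, spread from -1.15 to 3.76. The other thalamic genes lie mostly right of 0 and the other habenular genes around it.

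The relatives and partners of the members were mostly level in Hydroxyurea 3. Of 26 such genes 21 were tested, the median excess was 0.03 and 1 was highest there, Prkch, another protein kinase C, with an excess of 0.42. Tnnt2, the cardiac troponin T, had the largest excess, 0.73, but was slightly higher in Hydroxyurea 4, with -1.22, -1.35, -0.62 and -0.57 in Hydroxyurea 1 to 4, against -1.49, -2.27, -0.79 and -1.86 in Control 1 to 4. Tnnt3, the fast skeletal troponin T, had a measured 0.19 and was dim in Hydroxyurea 3, while Tcf7 had -0.09 and Slitrk3 -0.10. Of 12 genes of the Wnt pathway 11 were tested, and their median excess was -0.01. Lgr5, a receptor for R-spondins, had 0.64, Notum 0.18 and Axin2, a target gene of the pathway, 0.05, while Lrp6, a Wnt co-receptor, had -0.13 and Sp5 -0.57. Of the 11 Wnt pathway genes, 5 had an excess above 0 and 6 below, and Hydroxyurea 3 was the highest mouse for 1, Lgr5. Whether the activity of the pathway differed in that mouse was not tested.

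Hippocampal markers were checked against the label of the tissue, and those tested were well above background in all 8 mice. All 8 dentate gyrus genes, 8 of 10 genes of the CA1 and CA3 fields and all 8 genes of hippocampus and pallium were tested. Cdh24 and Iyd of the CA1 and CA3 list were well above background on only 2 arrays each and were not tested. Their median excess in Hydroxyurea 3 was -0.15, -0.10 and -0.13, and it was the highest mouse for none of the 24. The excess ran from -0.30 for C1ql2 to 0.09 for Npnt in the dentate gyrus list and from -0.49 for Man1a to 0.01 for Pou3f1 in the CA1 and CA3 list. Zbtb20, a factor of hippocampal pyramidal neurons, was 3.36 to 3.99 in the Hydroxyurea mice and 3.35 to 4.14 in the Control mice. The summed signal of the dentate gyrus list was 18.6 to 24.7 in the Hydroxyurea mice, 19.8 in Hydroxyurea 3, and 17.6 to 30.8 in the Control mice. For the CA1 and CA3 list it was 53.7 to 65.8 in the Hydroxyurea mice, 58.7 in Hydroxyurea 3, and 56.9 to 65.2 in the Control mice.

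The choroid plexus and hypothalamic lists had their highest means in other mice. The 14 choroid plexus genes had mean deviations of -1.17, 0.86, 0.19 and 2.69 in Hydroxyurea 1 to 4, against -2.06, -0.96, 0.78 and -0.34 in Control 1 to 4, so Hydroxyurea 4 was highest, as it was for Gbx2. Their summed signal was 19.1 to 231 in the Hydroxyurea mice and 9.29 to 109 in the Control mice, all 14 were tested and 13 had an excess above 0 in Hydroxyurea 3, with a median of 0.49. Cldn2, a tight junction protein of that epithelium, had an excess of 1.04, Prlr 0.93 and Slco1a5 0.83, while Msx1 had 0.13 and Sostdc1 -0.16. The 7 hypothalamic genes tested deviated by 0.98, 0.18, -0.35 and -0.05 in Hydroxyurea 1 to 4, against -0.40, -0.15, -0.23 and 0.01 in Control 1 to 4, so Hydroxyurea 1 was highest, as for Pou4f1 and Gpr151. Their summed signal was 1.14 to 4.70 in the Hydroxyurea mice and 1.14 to 1.64 in the Control mice, and Sim1 was not well above background on any array. Avp, the vasopressin precursor, had an excess of 0.78 in Hydroxyurea 3, and Nkx2-1, dim there, had a measured -1.13. Without Hydroxyurea 3, the treatment difference was above 0 for all 14 choroid plexus genes, with a median of 1.46. It was above 0 for all 7 hypothalamic genes, with a median of 0.64. Of the 17 other thalamic genes 7 were below 0, with a median of 0.05 over the list. Of all 16618 tested genes, 7940 were above 0. The genes of a list were measured in the same mice, so such counts are not independent. Within the treated group, Hydroxyurea 1 had the lowest choroid plexus mean (-1.17) and the highest hypothalamic mean (0.98). None of the genes in any list named here passed the test without Hydroxyurea 3 in either direction. The part of such tissue in the members' values was not tested.

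**Figure D5:**
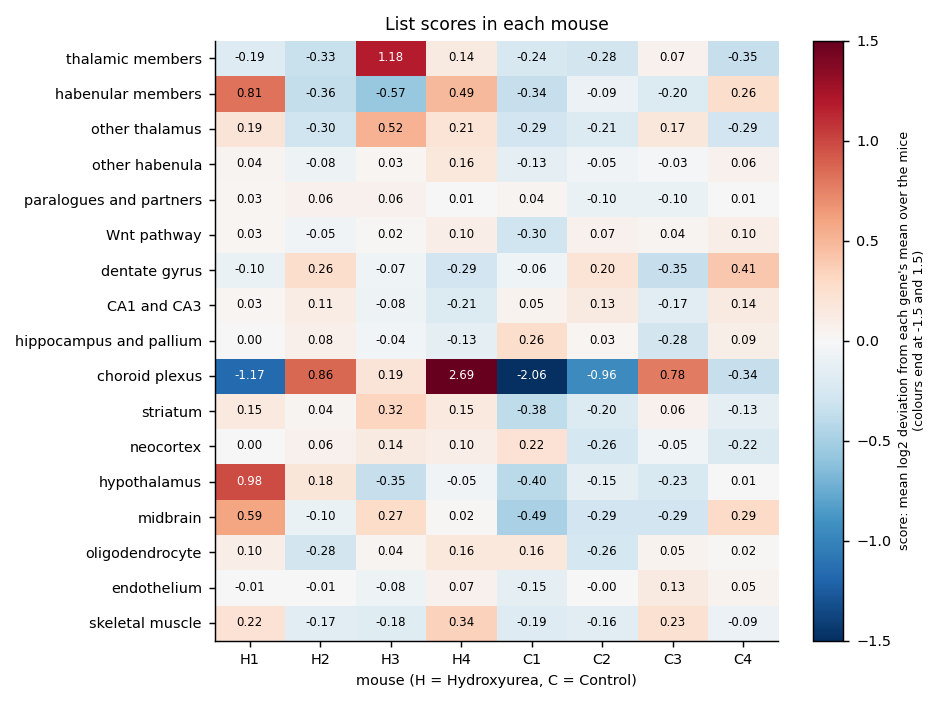
The mean log2 deviation of each gene list from its genes' means over the 8 mice (colour and printed value), by list (rows) and mouse (columns). Thalamic members reach 1.18 in Hydroxyurea 3, habenular members 0.81 in Hydroxyurea 1 and choroid plexus genes 2.69 in Hydroxyurea 4.

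Of 12 striatal genes, 3 were highest in Hydroxyurea 3, where 8.27% of all tested genes were highest, and the median excess was 0.03. Their mean deviation was 0.32 in Hydroxyurea 3, the highest of the 8 mice, against -0.38 to 0.15 in the other 7. Six3, a homeobox factor of striatal neurons that is also expressed in the reticular nucleus of the thalamus, had an excess of 2.67 (6.34-fold), from levels of -3.14, -3.94, -1.05 and -2.34 in Hydroxyurea 1 to 4, against -7.44, -4.47, -3.48 and -3.72 in Control 1 to 4. The dopamine receptor genes of the striatum split, with an excess of 0.85 for Drd2 and -0.30 for Drd1. Among 4 midbrain genes Gata3 had an excess of 1.77 and Slc6a3, the dopamine transporter, -0.49. The median excess was 0.27 over 8 neocortical genes, from Rspo1 at -0.32 to Tshz2 at 0.54. It was 0.06 over 9 oligodendrocyte genes, from Itpr2 at -0.23 to Mag at 0.24, and -0.07 over 8 endothelial genes, from Slco1c1 at -0.19 to Sox17 at 0.03. Of the 7 skeletal muscle genes tested none had an excess above 0, Myh1 being nearest at -0.03 and Mb, dim there, lowest at a measured -1.32. Whether muscle tissue had a part in the level of the muscle troponin gene Tnnt1 was not tested.

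The genes outside the set whose pattern was most like that of the members were found in 2 ways. By the correlation with the mean member score over the 8 mice, among genes with an SD of at least 0.2, the first were Patj (r = 0.980), Irak4 (0.966), Fhdc1 (0.953), H2-T10 (0.950) and Pcp4 (0.949), followed by Creb3l4, Pp2d1, Rgs16, Cfap44 and Ntng1 down to 0.910. These values describe 8 points of which Hydroxyurea 3 stands apart, and over the other 7 mice they were 0.62 to 0.92. Patj, a scaffold protein of cell junctions, had -0.65, -1.10, 1.09 and -0.40 in Hydroxyurea 1 to 4, against -0.94, -1.09, -0.33 and -0.91 in Control 1 to 4. Of its other 4 probes, 2 had an excess of 1.98 and 1.87. The remaining 2 had 0.19 (well above background on 4 arrays) and 0.26 (on 1 array). Pcp4, a calmodulin-binding peptide, had 5.26, 5.08, 5.86 and 5.30 in Hydroxyurea 1 to 4, against 5.06, 5.07, 5.38 and 5.27 in Control 1 to 4. Ntng1, a netrin-G of thalamic axons, had an excess of 0.52 on its brightest probe and 2.27 on the other. For 3 of these genes the second probe went the other way, with an excess of -1.53 for Irak4 (well above background on 3 arrays), -1.10 for Cfap44 (on 4 arrays) and -0.46 for Pp2d1 (on 1 array).

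The other way was the size of the measured excess, and all 10 genes it named were dim on at least 1 array. In 6 of them, Crybg2, Slc44a4, Ccdc105, Tex13c1, Esco2 and Dmbx1, the probe was well above background in only 3 of the other 7 mice, so they were tested only because of Hydroxyurea 3, and their excess is a bound. With dim values at the background limit it was at least 3.65 for Crybg2, 3.21 for Slc44a4, 2.59 for Ccdc105, 2.47 for Tex13c1, 1.91 for Esco2 and 2.59 for Dmbx1. The excess was 4.45 for Prickle4, 3.36 for Edn3, 2.98 for Olfr1375 and 2.81 for Vmo1, and the background limit did not move these 4. Prickle4 had a second probe with an excess of 0.16. Edn3, endothelin 3, a peptide ligand, had -4.86, -5.02, -1.72 and -5.20 in Hydroxyurea 1 to 4, against -5.65, -5.17, -5.08 and -5.04 in Control 1 to 4.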

How the data were processed

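Hippocampal RNA of 8 mice, 200 ng labelled with Cy3 per the labels' protocols, was hybridised to 1-colour Agilent arrays. Per the file headers, Feature Extraction 12.0.3.1 wrote a processed signal intensity per spot, with background removed on each array and no normalization from array to array. The authors also deposited a value table of z scores (log signal standardised within an array), used only as an alternative. Control and outlier spots were left out and spots of a probe averaged. The RefSeq table (GRCm38.p6) gave 1 gene to the accession of 28331 of the 55681 non-control probes. Testing required a probe well above background on 4 or more of the 8 arrays, with values on 6 or more. The tests came from limma 3.58.1 (lmFit, eBayes; R 4.3.3), were two-sided and were adjusted over all genes tested. No spot was saturated, and the number of arrays limits precision.

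The members and gene lists were chosen with earlier results of these data known. Named are all members, from each list part of the genes with the largest and lowest excess in Hydroxyurea 3, and the 10 other genes with the largest excess and with the highest correlation, without clone or locus names. Alternatives were other scalings (normexp with an offset of 50 on the median signals, as the mean spot signal was not used here), filters, probes, variance models, age terms, the replicate block and leaving out mice. The fit was tested on simulated data. P-values measure the spread between these mice.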

Additional observations from a re-analysis of the deposited data

Results flagged for a closer look

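In groups of 4 mice, a mouse was taken as apart from its group when its gap to the nearest other mouse, divided by the range of the group, was above Dixon's 95% critical value. The members were chosen by Hydroxyurea 3, so their levels were examined in the Control mice alone. Of 43 groups of values examined 2 had such a mouse, and chance gives about 1 in 20. The mean deviation of the 10 members in Control 3 was 0.02, against -0.26 to -0.22 in the other Control mice. The mean deviation of the Wnt pathway genes in Control 1, the array with the noisiest replicate spots, was -0.30, against 0.04 to 0.10 in the other Control mice.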

How the results depend on the processing

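No member was called under any alternative. Of the recomputed log2 differences of members without Hydroxyurea 3, 174 kept their sign and 33 did not, none of the 33 passed the test, and the cause was not tested. With age as a covariate, and equally with 19-week mice only, Tnnt1 was 0.18, Ramp3 0.19, Tcf7l2 -0.21 and Synpo2 0.29. Of the members that kept their sign there, Gbx2 moved most, to 1.56 (limma adjusted p = 0.206 and 0.328), and Slitrk6 was 0.53. Both settings set Hydroxyurea 4 alone against the Control mice, and this lone mouse is assumed to vary like them. Under these 2 settings 1 gene of all tested was called, Slamf8, named after its values were seen (log2 difference 4.45, limma adjusted p = 0.00345 and 0.0278), and it was also the gene called between ages. With all 8 mice Tnnt1 was 0.72 and Ramp3 0.38. With median centring Lef1 was -0.03, with normexp Gpr151 was 0.18, Ramp3 was 0.03 and Tcf7l2 -0.03, with array weights Ramp3 was 0.02 and Tcf7l2 -0.03, and in the z score table Tcf7l2 was -0.0017 and Pou4f1 -0.0025. Without Control 1 and Hydroxyurea 2 together, an alternative chosen after seeing the data, Ramp3 was 0.04, Lef1 -0.01 and Tcf7l2 -0.11. With the replicate number as a block Tnnt1 was 0.01 and Synpo2 0.05, and no gene was called. Same-numbered mice did not deviate together (correlations 0.05, 0.20, -0.21 and -0.06). These values cannot decide whether the numbers pair the mice. Leaving out 1 mouse gave -0.40 to 0.01 for Tnnt1, -0.08 to 0.45 for Prkcd, -0.19 to 0.09 for Ramp3, -0.30 to 0.65 for Gbx2, -0.0044 to 0.15 for Lef1, -0.14 to 0.24 for Tcf7l2, -0.30 to 0.10 for Synpo2 and -0.13 to 0.65 for Pou4f1. The median excess of the members in Hydroxyurea 3 was 0.96 and became 0.54 with normexp, and the median correlation between members was 0.12 to 0.36 without 1 mouse. Dim probes limit Gbx2, Gpr151 and Pou4f1.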
